A study of Mus musculus with 6 samples.

Results

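Smtnl1, smoothelin-like 1, was read together with 6 genes that set how strongly the regulatory light chain of myosin is phosphorylated: the kinase gene Mylk2, the phosphatase genes Ppp1r12a, Ppp1r12b and Ppp1cb, and the kinase genes Rock1 and Rock2. Members were all probe sets whose single gene symbol in the platform annotation is 1 of these 7 genes. This gave 10 of the 22690 probe sets on the array, with 1 for Smtnl1, 1 for Mylk2, 4 for Ppp1cb and 4 for Rock1. Ppp1r12a, Ppp1r12b and Rock2 are named by no single-symbol probe set and are not analysed here. The list was built around Smtnl1 because its difference between the muscles was already known, and the results of this contrast were known for the other genes too. The values of Smtnl1 are therefore a description with no test.

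The study compared the superficial masseter, which closes the jaw, with the tibialis anterior, a limb muscle that lifts the foot, in normal female C57Bl/6 mice of 6 months. All samples share that strain, sex and age, and none carries a transgene or had a treatment, as far as the labels say. There were 3 samples of each muscle on 1 short-oligonucleotide array each. Neither labels nor design text tell if each sample is from its own mouse, so part of the spread between samples could be technical.

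Force in muscle comes from myosin motors, and each motor carries a regulatory light chain that can be phosphorylated. In smooth muscle this phosphorylation switches contraction on, while in fast skeletal fibres the calmodulin-dependent kinase encoded by Mylk2 uses it to strengthen the twitch. Myosin phosphatase removes the phosphate. It joins a catalytic subunit, encoded by Ppp1cb, to a targeting subunit, encoded by Ppp1r12a or Ppp1r12b, and the kinases encoded by Rock1 and Rock2 restrain it by phosphorylating the targeting subunit. Smtnl1 is known from mouse smooth muscle and fast oxidative skeletal fibres as a target of cyclic nucleotide-dependent kinases that lowers myosin phosphatase activity.

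The stretch before the transcription start is shown for Smtnl1, the gene with the largest difference among the members, and for Ppp1cb, the phosphatase gene among the members that was measured. Both are RefSeq sequences on GRCm38.p6, 250 bases long, read 5′ to 3′ on the gene's strand and ending at the base before the annotated start. Capitals mark matches to the E-box CANNTG, a motif bound by myogenic and other helix-loop-helix factors. The Smtnl1 window lies at chr2:84822653-84822902 on the minus strand and the Ppp1cb window at chr5:32458720-32458969 on the plus strand.
Smtnl1: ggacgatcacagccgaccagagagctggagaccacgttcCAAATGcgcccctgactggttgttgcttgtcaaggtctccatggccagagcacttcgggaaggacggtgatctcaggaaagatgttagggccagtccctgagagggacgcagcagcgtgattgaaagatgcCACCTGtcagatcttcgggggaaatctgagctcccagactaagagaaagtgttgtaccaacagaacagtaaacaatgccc
Ppp1cb: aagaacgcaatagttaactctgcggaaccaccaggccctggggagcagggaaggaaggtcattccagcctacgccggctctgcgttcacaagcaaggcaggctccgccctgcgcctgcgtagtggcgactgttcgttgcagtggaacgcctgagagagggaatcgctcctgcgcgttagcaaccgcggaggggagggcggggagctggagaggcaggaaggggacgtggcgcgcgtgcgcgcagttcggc

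The Smtnl1 window held 2 E-box letter matches, 211 and 80 bases before the start, and the Ppp1cb window held 0. The motif reads the same way on both strands as a pattern, and 66.2% of 32851 promoter windows of the same length held at least 1. Neither window held a match to the MEF2 site (2.92% of windows) or the CArG box (1.47%), searched on both strands. Of the Smtnl1 bases 54.0% were G or C, with 9 CG pairs, against 65.2% and 24 in Ppp1cb. The medians over all windows were 52.4% and 6. These matches describe letters only, since the arrays measure transcripts and not promoters.

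Smtnl1 was higher in the masseter on every array. The deposited signal of its probe set, 1419145_at, a linear scaled intensity, was 1379, 1323 and 1149.6 on masseter arrays 1 to 3. On tibialis anterior arrays 1 to 3 it was 164, 236 and 366. The groups did not overlap: the lowest masseter array lay above the highest tibialis array. Means were 1284 ± 119 (SD, n = 3) and 255 ± 102 (SD, n = 3). On the log2 scale the difference, masseter minus tibialis anterior, was 2.40 with a limma standard error (SE) of 0.25, a 5.29-fold ratio of geometric means. Among 13576 probe sets bright enough to test it was the 42nd largest difference in either direction. In whole muscle, fewer cells that hold a transcript and less of it per cell cannot be told apart.

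The size of the Smtnl1 difference varied with the tibialis anterior rather than the masseter. The SD of log2 signal was 0.14 among masseter arrays and 0.58 among tibialis arrays. Within the pairs of samples that carry the same number in their titles, the log2 difference was 3.07 in pair 1, 2.49 in pair 2 and 1.65 in pair 3. Without tibialis anterior 3 it was 2.70, fitted with the pairing ignored, and without tibialis anterior 1 it was 2.12. Leaving out masseter arrays moved it less, from 2.35 without masseter 1 to 2.48 without masseter 3.

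**Figure D1:**
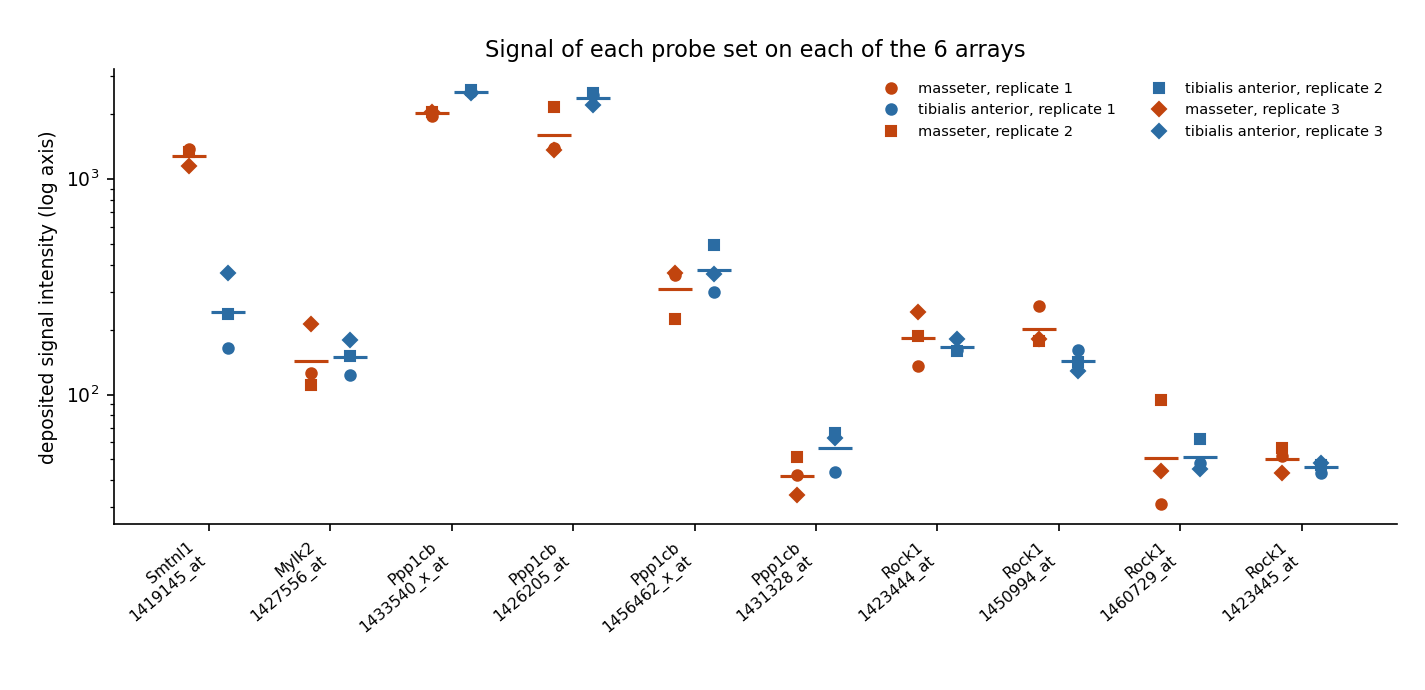
Deposited signal (log axis) of each of the 10 probe sets on the 6 arrays, with masseter in orange, tibialis anterior in blue, a marker shape for each replicate number and bars at the geometric means of 3 arrays. Smtnl1 separates widely (1149.6 to 1379 against 164 to 366), and the levels of different probe sets are not comparable with each other.

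Mylk2, the skeletal muscle light chain kinase, had overlapping levels. Its signal was 125, 110.3 and 213 on masseter arrays 1 to 3, and 123, 151 and 179.8 on tibialis anterior arrays 1 to 3. Masseter 3 was the highest of all 6 arrays and masseter 2 the lowest. The SD of log2 signal was 0.50 among masseter arrays and 0.27 among tibialis arrays. The log2 difference was -0.06 ± 0.20 (SE; limma adjusted p = 0.936), and its sign turned in 4 of 16 alternative settings. It was positive in pairs 1 and 3 and negative in pair 2 (0.03, 0.24 and -0.45).

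Ppp1cb, the catalytic subunit that acts in myosin phosphatase, had a lower mean in the masseter by all 4 probe sets, and none of them passed the threshold, an adjusted p of 0.05. The brightest, 1433540_x_at, gave masseter signals of 1959, 2031 and 2034, and tibialis signals of 2524, 2584 and 2484. The arrays of each muscle lay close together, with a log2 SD of 0.03 in both, and the muscles did not overlap. Its log2 difference was -0.33 ± 0.12 (SE; limma adjusted p = 0.283). Probe set 1426205_at gave 1389.9, 2139 and 1355 in the masseter, and the tibialis arrays read 2446, 2483 and 2199.8. Here too every masseter array lay below every tibialis array, though masseter 2 came within reach of tibialis anterior 3. The log2 difference was -0.58 ± 0.15 (SE; limma adjusted p = 0.142), the largest among the 9 probe sets other than Smtnl1, and its lowest adjusted p over 16 alternatives was 0.0912.

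The other Ppp1cb probe sets were dimmer and overlapped. For 1456462_x_at the masseter ran from 225 to 366 and the tibialis anterior from 299.6 to 495, a difference of -0.29 ± 0.26 (SE; limma adjusted p = 0.718). Only pair 2 was negative for it, at -1.14, against 0.26 and 0.02 in pairs 1 and 3. For 1431328_at the ranges were 34.2 to 51.4 and 43.9 to 66.6, a difference of -0.43 ± 0.31 (SE; limma adjusted p = 0.628). The ending x_at is the array maker's mark for a probe set in which some probes also match other transcripts, so 2 of the 4 Ppp1cb readings may include related sequences.

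Rock1 encodes a kinase that acts on the phosphatase's targeting subunit, and its 4 probe sets, all designed on the same sequence accession, did not give the same picture. Probe set 1450994_at gave 257, 177 and 181 on masseter arrays 1 to 3, and 161, 141 and 129 on tibialis arrays 1 to 3. All masseter arrays lay above all tibialis arrays, and the difference was 0.49 ± 0.18 (SE; limma adjusted p = 0.281). A second probe set, 1423444_at, gave 135, 187 and 241 for the masseter, and 161, 158 and 180.4 for the tibialis anterior. There the muscles overlapped, masseter 1 was the lowest array instead of the highest, and the difference was 0.14 ± 0.20 (SE; limma adjusted p = 0.836). The dim probe sets 1423445_at and 1460729_at ran from 43.4 to 56.6 and from 31.2 to 94.1 over the 6 arrays, with differences of 0.12 ± 0.30 and -0.01 ± 0.33 (SE; limma adjusted p = 0.912 and 0.991).

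**Figure D2:**
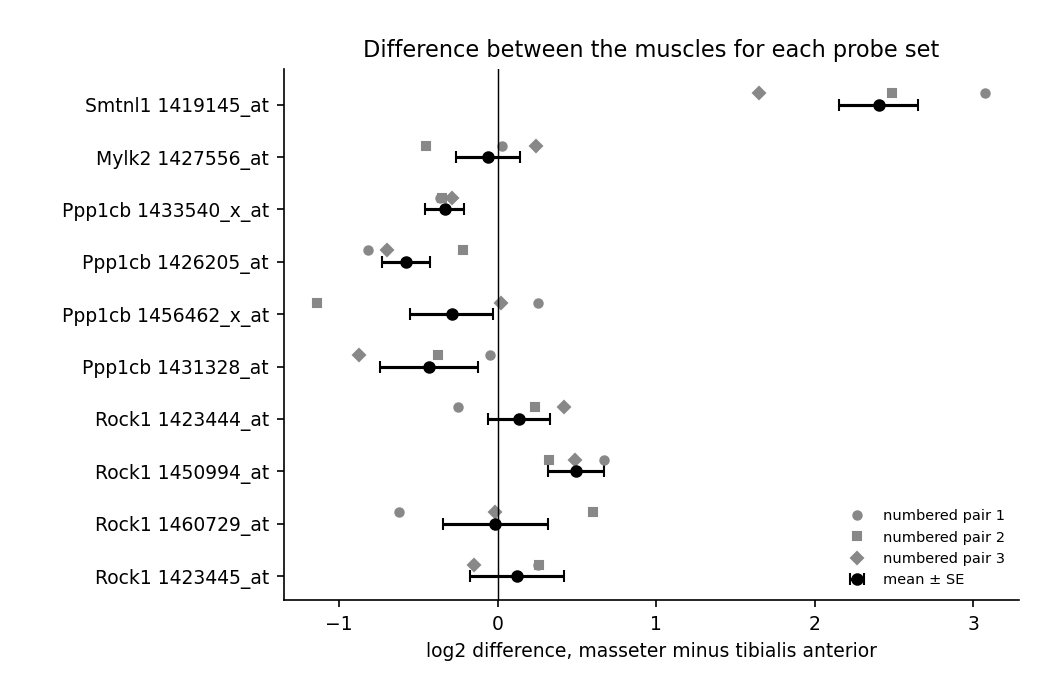
Log2 difference, masseter minus tibialis anterior, of each probe set as the mean with its limma SE (black), and in the 3 numbered pairs of samples (grey). Smtnl1 stands at 2.40, the 4 Ppp1cb probe sets have means between -0.58 and -0.29, and the Mylk2 and Rock1 means lie between -0.06 and 0.49.

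Of the 10 probe sets, all of which passed the filter on dim signals, 1 was past the threshold, that of Smtnl1, against a background of 1.18% (160 of 13576) in either direction and 0.560% higher in the masseter. Since the list was built around Smtnl1, nothing is read from that count. Of the other 9, 0 passed by limma, 3 had an unadjusted p under 0.05, against a background of 13.1% of all probe sets, and 0 passed by paired SAM, the test that the series' design text names. The muscles did not overlap for 4 of the 10 probe sets, and that of Smtnl1 was known beforehand. Without Smtnl1 they did not overlap for 3 of the 9, 2 of Ppp1cb with the masseter below and 1 of Rock1 with it above. The background was 17.8% (9.21% with the masseter above and 8.63% with it below). The median difference of the 9 was -0.06, and that of all probe sets tested was 0.02.

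A wider list of 60 genes around light chain phosphorylation was drawn up by role. Single-symbol probe sets name 48 of them, and 40 were bright enough to test, each read by its brightest probe set. Of these 40, 2 were lower in the masseter (Myl2 and Myl12a), 0 were higher and 38 did not pass, which is 5.00% past the threshold against a background of 1.37% of 8316 genes (0.709% higher and 0.661% lower). The muscles did not overlap for 13 of the 40, or 32.5%, against 19.0% of all genes. At an unadjusted p under 0.05 there were 5 higher and 7 lower, against a background of 13.9% of all genes (7.35% higher and 6.57% lower), and by paired SAM 1 passed. The median difference was 0.03 for the list and 0.02 for all genes.

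Both genes past the threshold encode regulatory light chains, the substrates of the pathway. Myl2, the chain of slow and cardiac myosin, read 31.5, 28.6 and 19.2 on masseter arrays, against 253, 696 and 304 on tibialis arrays. The masseter mean lay under the filter level of 28.6, and set against that level the tibialis mean was at least 13.2-fold higher (limma adjusted p = 0.00114). Myl12a, a regulatory chain of non-muscle myosin, read 1804, 2161 and 1909 on masseter arrays, against 3906, 4653 and 6639.5 on tibialis arrays. Every tibialis array lay above every masseter array, with a difference of -1.34 ± 0.16 (SE; limma adjusted p = 0.0093).

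The second Myl12a probe set gave the same direction. It read 149.9, 138 and 134 on masseter arrays and 353, 366 and 546 on tibialis arrays, with a difference of -1.55 ± 0.20 (SE; limma adjusted p = 0.0116). With eBayes run without an intensity trend neither gene passed (adjusted p = 0.062 for Myl2 and 0.2 for the first Myl12a probe set), and that Myl12a probe set also missed the threshold by paired SAM (0.0934). Myl12b is a closely similar gene, and signals of such a pair can mix on short probes. Its brightest probe set had means of 568 and 474, masseter first (0.26 ± 0.15 SE, limma adjusted p = 0.515). Mylpf, the chain of fast skeletal myosin and the main substrate of the Mylk2 kinase, had means of 16831 and 16806 (0.00 ± 0.11 SE, limma adjusted p = 0.996). These signals are near the highest of the arrays (18461 on masseter 1 to 22667 on masseter 3), where a difference can be understated. Myl9, the smooth muscle chain, had lower values on all masseter arrays (337 to 362 against 395 to 505), with an adjusted p of 0.367 by limma.

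Among the other kinases of the light chain, 0 of 6 measured genes passed, against a background of 1.37% of all genes. A count of 0 is near that share in so short a list. Neither it nor the counts of the roles below are read as a result about a role. Mylk, the smooth muscle light chain kinase, had means of 256 and 243 (0.08 ± 0.19 SE, limma adjusted p = 0.912). Dapk1, a calmodulin-regulated death-associated kinase, had 54.7 and 38.5 (0.51 ± 0.31 SE), and Dapk3, which can phosphorylate both the light chain and the phosphatase's targeting subunit, had 74.9 and 87.5 (-0.22 ± 0.22 SE). The differences of all 6 lay between -0.22 and 0.51. The 3 calmodulin genes listed are named by no single-symbol probe set and are not analysed here.

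Of the other phosphatase subunits, 0 of 3 measured genes passed. Ppp1cc, the gamma catalytic subunit, read 1763, 1622 and 1682 on masseter arrays and 2531, 2236 and 2368 on tibialis arrays. As for the bright Ppp1cb probe sets, all masseter arrays lay below all tibialis arrays, with a difference of -0.49 ± 0.12 (SE; limma adjusted p = 0.119), but its second probe set overlapped (-0.24 ± 0.19 SE). Ppp1ca, the alpha subunit, had means of 627 and 685 (-0.13 ± 0.14 SE). Ppp1r12c, a targeting subunit related to those of Ppp1r12a and Ppp1r12b, was close to the filter level, at 36.3 and 25.3 (0.52 ± 0.44 SE, limma adjusted p = 0.691).

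Among inhibitors of the phosphatase, 0 of 5 measured genes passed. Ppp1r1a, inhibitor-1 of protein phosphatase 1, which acts once protein kinase A has phosphorylated it, read 265, 189 and 313 on masseter arrays and 92.7, 134 and 166 on tibialis arrays. The muscles did not overlap, and the difference was 0.98 ± 0.22 (SE; limma adjusted p = 0.0982). Ppp1r2, inhibitor-2, had means of 962 and 1153 (-0.26 ± 0.16 SE). Ppp1r14a, the smooth muscle inhibitor known as CPI-17, was dim at 46.4 and 55.6 (-0.26 ± 0.30 SE).

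**Figure D3:**
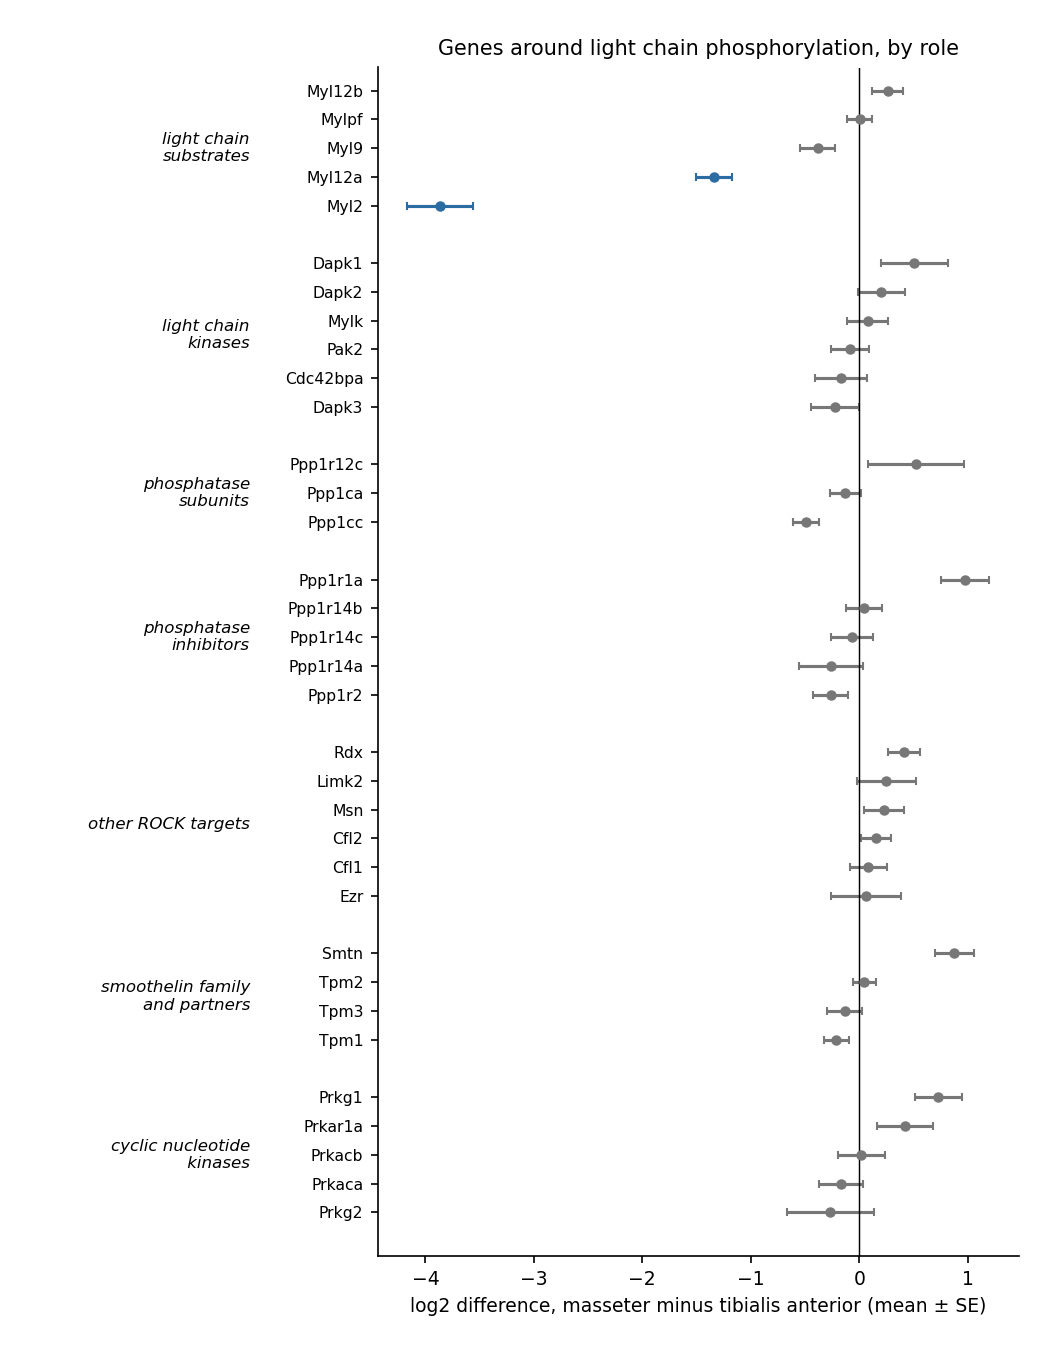
Log2 difference, masseter minus tibialis anterior, with its limma SE for 34 of the 40 measured genes of the wider list, grouped by role; blue marks the 2 past the threshold. Myl12a lies at -1.34, the point of Myl2 rests on a masseter mean under the filter level and is not a measured ratio, and the other 32 lie between -0.49 and 0.98.

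Of the other targets of the Rock1 and Rock2 kinases, such as the actin-linking protein radixin (Rdx, 1132 and 853, 0.41 ± 0.15 SE) and moesin (Msn, 413 and 353, 0.23 ± 0.18 SE), 0 of 6 passed. The brightest probe sets of all 6 gave differences above 0, but a second one of Rdx gave -0.72 ± 0.33 and a second one of Limk2, a LIM kinase, -0.56 ± 0.36 (SE).

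Smtn, the smoothelin gene from which the smoothelin-like genes take their name, read 244, 310.4 and 227 on masseter arrays and 146, 140.0 and 136 on tibialis arrays. Like Smtnl1 it was higher on every masseter array than on any tibialis array. Its difference of 0.88 ± 0.18 (SE) did not pass (limma adjusted p = 0.0722). It missed the threshold in 16 alternatives (adjusted p = 0.0509 to 0.395) and passed in 1, the fit to each gene's mean over its probe sets (0.0369). Smtn has 1 probe set, so its signals and difference were the same in that fit. What changed was the set fitted and adjusted over, 8316 genes in place of 13576 probe sets. Tpm1, a tropomyosin, had means of 15838 and 18350.4 (-0.21 ± 0.12 SE, limma adjusted p = 0.502). As for Mylpf, signals this bright can understate a difference. Smtnl2 is named by no single-symbol probe set and is not analysed here. Of the cyclic nucleotide-dependent kinases, the class that phosphorylates Smtnl1, 0 of 5 passed. Prkg1, the cyclic GMP-dependent kinase of smooth muscle, read 129, 170.3 and 193 on masseter arrays and 101, 109.9 and 84.1 on tibialis arrays, without overlap (0.73 ± 0.22 SE, limma adjusted p = 0.198). Prkar1a, a regulatory subunit of protein kinase A, had means of 491 and 367 by its brightest probe set, with overlap (0.42 ± 0.26 SE). By another Prkar1a probe set every masseter array lay above every tibialis array (0.63 ± 0.18 SE, limma adjusted p = 0.165).

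Across the array, the genes most like Smtnl1 over the 6 arrays were ranked by the root mean square difference between log2 profiles after each gene's own mean was removed. The nearest was Tm6sf1, a membrane protein gene, at 0.35 log2 units, followed by Fhl2, a LIM-domain protein of striated muscle (0.38), Zmym3, a zinc-finger protein (0.39), Egln3, an oxygen-sensing enzyme that hydroxylates hypoxia-inducible factor (0.40), and Lysmd2 (0.41). All 5 were higher on every masseter array, by 1.80 to 2.28 on the log2 scale. The tibialis mean of Zmym3, 17.2, lay under the filter level of 28.6, so its 1.86 is not a measured ratio. Tm6sf1 (26.3 and 28.1) and Lysmd2 (23.7) also had tibialis arrays under that level. Like Smtnl1, each had its smallest pair difference in pair 3 (0.71 to 1.68). The second probe sets of Tm6sf1 and Egln3 gave smaller differences, 0.57 and 1.40. Being chosen for their likeness, these values are a description.

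**Figure D4:**
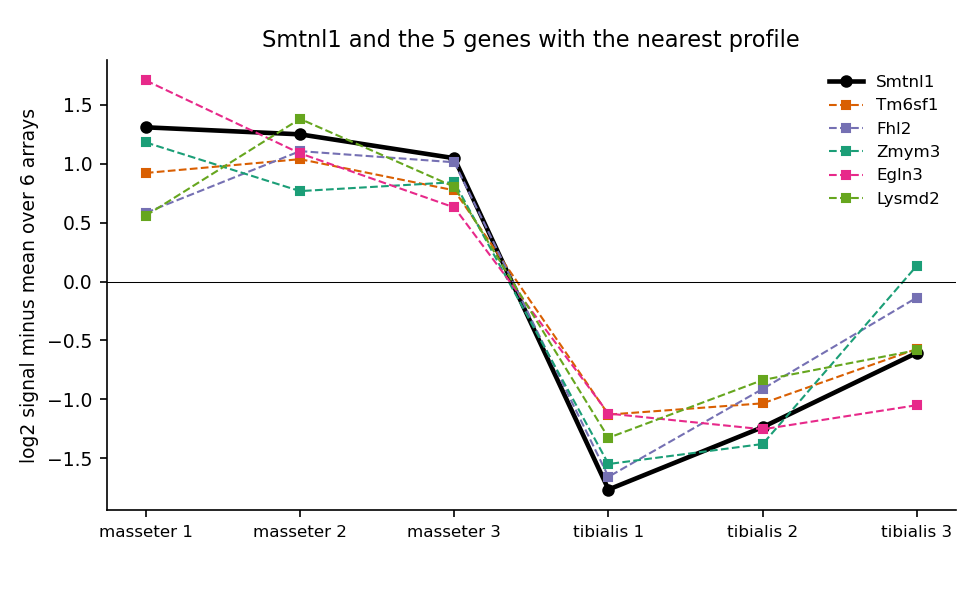
Log2 signal minus its mean over the 6 arrays for Smtnl1 (black) and the 5 genes with the nearest profiles; lines join the values of 1 gene and carry no order. All 6 genes are higher on every masseter array than on any tibialis array, and the 5 lie within 0.35 to 0.41 log2 units of it by root mean square.

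None of the genes near Smtnl1 on chromosome 2 that were bright enough to test had a difference of its size. Of the 5 protein-coding genes on either side in RefSeq order (GRCm38.p6), a set chosen after the values were known, 5 of 10 were bright enough to test. Their differences ran from -0.26 (Zdhhc5) to 0.34 (Clp1), with 0 past the threshold by limma, 0 at an unadjusted p under 0.05 and 0 by paired SAM. Over all genes 1.37% were past the threshold and 13.9% had an unadjusted p under 0.05, so counts of 0 in 5 genes are near the background. Ube2l6, the gene directly before Smtnl1 in that order, was under the filter.

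Smtnl1 has been placed in fast oxidative and in smooth muscle cells, so markers of both were read beside it. Myh2, the heavy chain of fast oxidative fibres, had overlapping signals (9464 to 12391 in the masseter, 5737 to 12944 in the tibialis anterior; 0.21 ± 0.16 SE, limma adjusted p = 0.659), while Myh4, that of fast glycolytic fibres, was lower in the masseter (5649 to 8100.0 against 17512.5 to 20228; -1.47 ± 0.14 SE, limma adjusted p = 0.00265). Myh7, the slow heavy chain found with Myl2 in slow fibres, read 18.8, 14.5 and 28.8 on masseter arrays and 157, 107 and 53.9 on tibialis arrays. The muscles did not overlap, and it did not pass (limma adjusted p = 0.0671). Myh1, the brightest of the 4 heavy chain genes listed, had overlapping signals with means of 16963 and 16143 (0.07 ± 0.13 SE, limma adjusted p = 0.877). Signals of Myh1 and those of Myh4 in the tibialis anterior, like those of Mylpf, are near the highest of the arrays, where a difference can be understated. Of 7 measured smooth muscle markers, led by Acta2 (1337 and 1850.1) and Cald1 (418 and 399), 0 passed by limma, 1 had an unadjusted p under 0.05 and 0 passed by paired SAM. That 1 was Acta2, lower in the masseter (-0.47 ± 0.18 SE). Kcnmb1 was the only measured one whose muscles did not overlap, at 31.0 to 54.1 on masseter arrays and 14.4 to 28.3 on tibialis arrays. It did not pass (limma adjusted p = 0.428), and its tibialis arrays all lay under the filter level of 28.6. The summed signal of all 8 listed, with Lmod1 under the filter, was 2083 to 2669.5 on masseter arrays and 2283 to 3327 on tibialis arrays. Acta2 was the largest part of that sum on every array, and no marker was at or under 1 on all arrays. The summed signal of 6 endothelial markers, led by Kdr and Tek, overlapped as well (792 to 936 and 753 to 1074), with 0 past the threshold by limma, 0 at an unadjusted p under 0.05 and 0 by paired SAM. The skeletal muscle markers, led by Mb (20687 and 20148) and Acta1, were bright on all arrays, as muscle tissue should show. Mb and Acta1 are also near the highest signals, where a difference can be understated. The sums of the list were 87754 to 106160 on masseter arrays and 106392 to 107627 on tibialis arrays, without overlap. Of 7 measured, 0 passed by limma or paired SAM, and 1 had an unadjusted p under 0.05, Pygm, muscle glycogen phosphorylase, at means of 4431 and 6703 (-0.60 ± 0.17 SE). The background for these marker counts was 1.37% of all genes past the threshold and 13.9% at an unadjusted p under 0.05.

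Some markers of other tissues did differ. The salivary gland list, led by Amy1 and Bpifa2, summed to 61126, 6944 and 1203 on masseter arrays 1 to 3. On tibialis arrays 1 to 3 it summed to 3431, 1299 and 664, so the sums overlapped. Of its 6 measured genes 2 were higher in the masseter and 0 lower, against a background of 0.709% higher and 0.661% lower over all genes. The 2 were Smr3a and Pip (limma adjusted p = 0.0266 and 0.0113), and the arrays of the muscles overlapped for both. Amy1 and Bpifa2 did not pass (limma adjusted p = 0.087 and 0.0544). Without masseter 1, in a fit without the replicate block, the Smtnl1 difference was 2.35 ± 0.30 (SE). Of 3 measured adipocyte genes 1 passed, against the same background. It was Adipoq, higher in the masseter (332 and 138), while Fabp4 was not past the threshold (4361 and 3609). The list's sums overlapped, at 4145 to 5935 and 2989 to 4992. The signal ratio of the 3′ to the 5′ Gapdh control, a sign of RNA length, was 2.66 ± 0.23 for masseter arrays and 1.94 ± 0.11 for tibialis arrays (SD, n = 3 each). The same ratio for Actb was 2.96 ± 0.34 and 2.70 ± 0.11. The part of salivary tissue, of fat and of RNA length in the differences above was not tested.

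**Figure D5:**
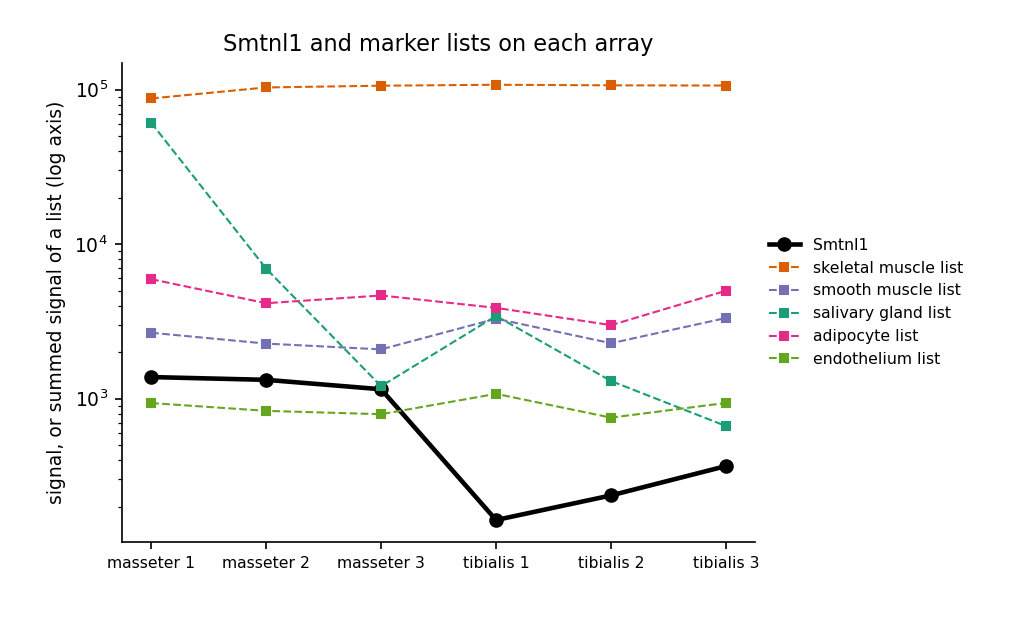
Signal of Smtnl1 (black) and summed signal of 5 marker lists (log axis) on each array; lines join the values of 1 gene or list and carry no order. The salivary sum is 61126 in masseter 1 and 1203 in masseter 3, the masseter arrays read Smtnl1 between 1149.6 and 1379, and the smooth muscle sums of the muscles overlap.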

How the data were processed

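Each probe set has 1 intensity per array, deposited by the authors on a linear scale. MAS5 and GCOS are named, per the submitters' processing notes, without versions or settings. The 2% trimmed mean was 150.1 on all 6 arrays, so no further scaling was applied. Detection calls were not used, and precision is limited by having 3 arrays a muscle.

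Gene names came from the platform annotation: of 22690, 20380 had 1 symbol, 691 several, 1555 none and 64 were controls. Signals under 1 were set to 1 and log2 taken. Probe sets with a mean log2 signal at or over the 40th percentile, a signal of 28.6, were kept (13576). The two-sided test was limma 3.58.1 (R 4.3.3) with lmFit and trended eBayes. The number in the sample titles entered as a fixed block, since the design text speaks of paired comparisons. P-values had Benjamini-Hochberg adjustment over all probe sets kept, at a threshold of 0.05. Group means are geometric unless given with an SD. The code was tested on simulated data.

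The members and gene lists were chosen with earlier results of these data known. Every member probe set is named, and of each role the genes past the threshold and the 2 with the smallest adjusted p among the others, always Mylpf, Myl2, Mylk, Smtn, Smtnl2, Myh2 and Myh4, the 2 brightest genes of each marker list and the 5 genes most like Smtnl1. Ppp1ca, Ppp1r14a, Limk2, Myh7, Pygm, Kcnmb1 and the neighbours of Smtnl1 were picked after their values were seen. The genes of 1 role enter the counts over the wider list, but their own results are not reported here. Alternatives changed the filter, the offset, the scaling, the block, the moderation, the test, the arrays used and, for the wider list, the probe set rule (a gene's mean in place of its brightest).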

Additional observations from a re-analysis of the deposited data

How the results depend on the processing

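The log2 difference of Smtnl1 stayed positive in 16 of 16 alternatives, from 2.07 without replicate 1 to 2.78 without replicate 3. With eBayes without trend, 0 of the 10 probe sets of the 7 genes and 0 of the 40 wider genes passed (3 and 8 at an unadjusted p under 0.05), and 13 of all probe sets. The mean over each gene's probe sets gave 3 of the wider genes, Smtn (with 1 probe set) beside Myl2 and Myl12a, and 165 of 8316 genes in all. Paired SAM called 68 probe sets in all and 1 of the wider genes, Myl2. Myl12a had an adjusted p of 0.2 without trend and 0.0934 by SAM, and Myl2 0.062 without trend. The cause was not tested. With 1 replicate or array left out, the count over all probe sets ran from 45 to 173. No replicate block gave 138 probe sets in all, 1 of the 7 genes and 2 of the wider list, and a Smtnl1 difference of 2.40 ± 0.26 (SE). Deviations of same-numbered samples from their muscle's mean had correlations of 0.0392, 0.152 and 0.101, and those of samples with unlike numbers ran from -0.157 to 0.0468. Masseter 2 and masseter 3 correlated best with their own number. Masseter 1 was nearly level between tibialis anterior 2 (0.0412) and tibialis anterior 1 (0.0392). These values do not settle if same-numbered samples share more than a number. No call was reversed. Signs turned in 45 values of results that were not past the threshold. The probe sets near the filter level, such as the dim ones of Rock1 and Ppp1cb, have little signal over background, which limits what their ratios can show.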
